A study of Mus musculus with 21 samples.

Results

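Bone marrow-derived macrophages labelled as coming from mice on a Western diet were compared with macrophages from mice on standard chow, both without lipopolysaccharide (LPS). The libraries were chosen by their labels alone: the 3 labelled WD control (replicates 1 to 3) against the 3 labelled ND control (replicates 4 to 6) of the same deposited table. These are 6 of the 21 libraries of the series. Of the 46355 autosomal genes in that table, 9994 reached 1 in 3 or more of its 9 libraries and were tested. Donors were of strain C57Bl6/J, and 24 weeks is given both as their age and as the time on either diet. The Western diet is described as rich in fat, sugar and cholesterol. Marrow was cultured in RPMI-1640 with supernatant of L929 cells, a mouse fibroblast line that secretes the growth factor CSF1, so every group consisted of macrophages grown outside the animal. The remaining 3 libraries of the table are labelled WD LPS (Western diet, 100 ng/ml LPS for 24 h). They entered the fit through the shared spread, and their values are given beside some genes. The labels number the replicates without saying whether a number is an animal or a culture, so p-values measure only the spread between these libraries.

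Macrophages carry TLR4, the receptor for LPS, whose adaptors switch on NF-kB and interferon regulatory factors. NF-kB drives cytokine and chemokine genes, and secreted interferon then turns on antiviral genes in the same dish. Separately, macrophages that take up much lipid or many dead cells express genes such as Trem2, Gpnmb, Lgals3 and Plin2, known from atherosclerotic plaques and the fatty liver.

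The values have no named unit and behave like length-scaled expression values (FPKM). They are called deposited values here, and all differences are on the log2(value + 1) scale. Library sums lay between 334418 and 356920 across the 6 libraries, and read depth was not used here. Sex-linked genes set the groups apart. The Y-linked genes Eif2s3y, Ddx3y, Uty and Kdm5d were listed at 0 in all 3 chow libraries, while Eif2s3y stood at 15.1, 27.5 and 22 in WD control. Xist, the X-linked RNA of cells with an inactive X chromosome, stood at 4.56, 3.55 and 7.72 in chow and below 1 in WD control. Diet label and sex-linked expression therefore cannot be told apart in this comparison, and the main test took autosomal genes only. The other chow libraries of the series (ND control replicates 1 to 3, deposited in a separate table) do carry the Y-linked genes, with Eif2s3y at 25.1, 30.2 and 29.8. Their values are given where they bear on a gene, as levels from a separately normalized table and with no test.

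The 3 libraries labelled WD control did not behave as one group. Across the 9994 genes, replicates 1 and 3 correlated with each other at r = 0.982 on the log2 scale and with the chow libraries at 0.725 to 0.756. Replicate 2 correlated with chow at 0.970 to 0.977 and with replicates 1 and 3 at 0.751 to 0.776. Chow libraries correlated among themselves at 0.979 to 0.985; genes are not independent replicates, and these values are descriptions. Replicate 1 had 850 genes at least 2-fold above and 2625 at least 2-fold below the chow mean (8.51% and 26.3% of genes). Replicate 3 had 941 and 2731 (9.42% and 27.3%), and replicate 2 had 105 and 102 (1.05% and 1.02%). Replicate 2 was thus almost as close to chow as chow libraries are to each other. Against the mean of the other chow libraries, ND control replicates 4, 5 and 6 had 61, 39 and 55 genes above (0.61%, 0.39% and 0.55%) and 46, 89 and 51 below (0.46%, 0.891% and 0.51%). The median SD of a gene was 0.14 among chow libraries and 0.46 in WD control, and 85.5% of genes varied more in WD control.

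Replicates 1 and 3 differed from replicate 2 most clearly in the genes that LPS moves in chow macrophages. Each gene was classed from the separate table, in which ND LPS (chow, 100 ng/ml LPS for 24 h) was compared with ND control replicates 1 to 3. The class "raised" or "lowered" took an adjusted p under 0.05 (limma, Benjamini-Hochberg) and a change of at least 2-fold, and "little changed" took a log2 change within 0.5 either way. Of the genes tested here, 577 were raised, 1340 lowered, 5200 little changed and 2588 in between, and 289 had no test there. LPS-raised genes had median log2 differences from the chow mean of 2.21, 0.09 and 2.28 in WD control replicates 1, 2 and 3. LPS-lowered genes stood at -1.53, -0.08 and -1.53, and little-changed genes at -0.34, 0.04 and -0.34. Replicates 1 and 3 thus carried the LPS pattern under a label without LPS, and replicate 2 did not. The displaced genes were not limited to these classes: in replicate 1, 442 of the 850 genes at least 2-fold above chow were LPS-raised, 980 of the 2625 at least 2-fold below were LPS-lowered, and 719 of the latter were little changed by LPS. In WD LPS, set against the same chow libraries, the medians of the LPS-raised genes were -0.18, -0.16 and 1.63, and replicate 3 alone stood high. Whether the labels of these libraries hold was not tested.
The 6 libraries did not overlap for 806 genes higher in WD control (8.06%) and 2108 lower (21.1%). Of the LPS-raised genes 239 were among the higher and 7 among the lower, and of the LPS-lowered genes 25 and 510. The median of all genes was -0.49, 0.02 and -0.49 in replicates 1, 2 and 3, so that lower values in replicates 1 and 3 are partly shared by the whole library. Scaling each library by its median ratio moved the median change of all genes from -0.31 to 0.01 and the split to 1367 higher and 1600 lower (13.7% and 16%).

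**Figure D1:**
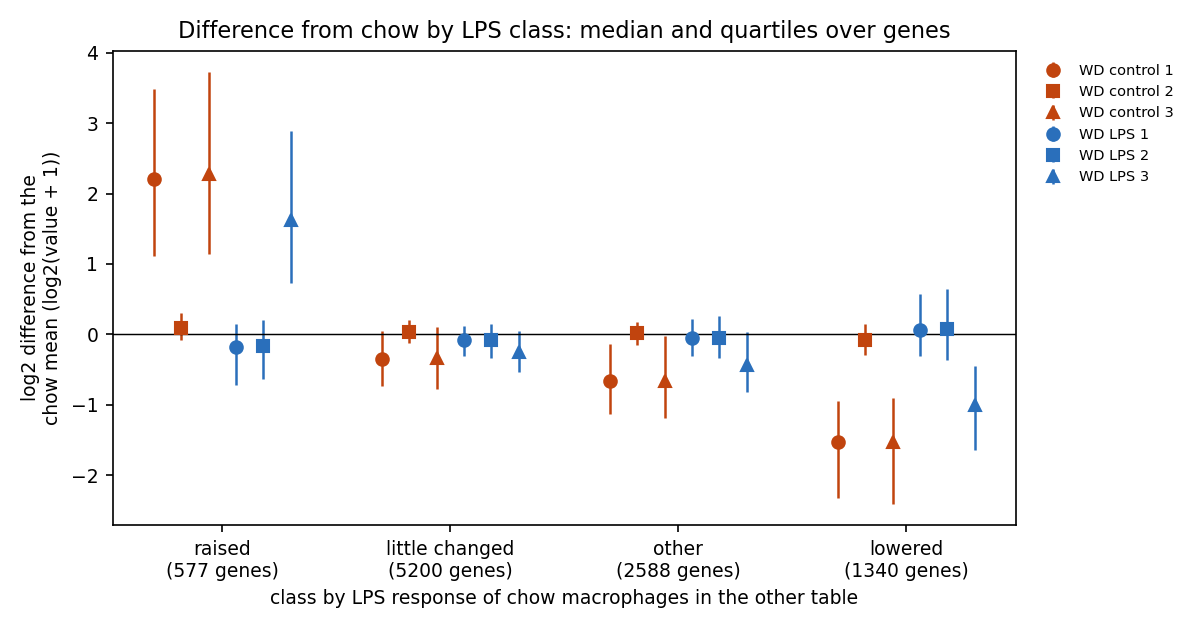
Median (points) and quartiles (lines) over genes of the log2 difference from the chow mean for each library labelled WD control or WD LPS, by the class of the gene in the LPS response of chow macrophages; the y axis is on the log2(value + 1) scale. For the 577 raised genes the medians of WD control replicates 1 and 3 and WD LPS replicate 3 are 2.21, 2.28 and 1.63, and those of the other 3 libraries lie between -0.18 and 0.09.

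To show the kind of gene concerned, the promoters of 3 genes are given. Cxcl10, a chemokine for T cells, and Rsad2, an antiviral enzyme, were high in WD control replicates 1 and 3 and near chow in replicate 2, whereas Lgals3 was high in all 3 libraries. The sequences are the 250 bases before the start site in RefSeq (GRCm38.p6), read 5′ to 3′ in the direction of the gene. Capitals mark matches on either strand to 4 motifs: the interferon-stimulated response element (ISRE, written as GAAA, then NN, then GAAA), the NF-kB consensus, the AP-1 site TGANTCA, and the STAT6 site (TTC, then NNNN, then GAA). No marked matches overlap.
Cxcl10 (chr5:92348890-92349139, minus strand): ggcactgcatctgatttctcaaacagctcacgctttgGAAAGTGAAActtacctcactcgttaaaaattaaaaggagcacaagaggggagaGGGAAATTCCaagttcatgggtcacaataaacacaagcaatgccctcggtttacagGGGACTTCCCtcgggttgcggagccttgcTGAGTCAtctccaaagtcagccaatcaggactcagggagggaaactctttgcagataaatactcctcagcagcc
Rsad2 (chr12:26456453-26456702, minus strand): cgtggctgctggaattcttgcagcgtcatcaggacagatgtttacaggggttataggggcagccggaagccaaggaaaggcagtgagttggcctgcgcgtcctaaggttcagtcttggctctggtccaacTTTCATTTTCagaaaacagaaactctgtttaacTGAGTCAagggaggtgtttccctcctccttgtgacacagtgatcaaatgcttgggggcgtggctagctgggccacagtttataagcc
Lgals3 (chr14:47373610-47373859, plus strand): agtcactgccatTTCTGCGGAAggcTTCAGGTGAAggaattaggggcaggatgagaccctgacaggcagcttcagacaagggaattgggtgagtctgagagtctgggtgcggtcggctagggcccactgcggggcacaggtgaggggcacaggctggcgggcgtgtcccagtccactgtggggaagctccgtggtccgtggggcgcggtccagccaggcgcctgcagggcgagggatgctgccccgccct
The Cxcl10 window held 1 ISRE, 2 NF-kB matches and 1 AP-1 match, and the Rsad2 window 1 ISRE and 1 AP-1 match. The Lgals3 window held 2 STAT6 matches. Of 32851 promoters of this length, 2.98% held the ISRE, 3.90% the NF-kB consensus, 6.75% the AP-1 site and 5.85% the STAT6 site. A match is a string of letters and shows no binding.

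Of 16 chemokine genes tested, 10 lay above ND control replicates 4 to 6 in each WD control library and 2 below, at unequal levels. Among all genes tested, 8.06% lay above and 21.1% below. In every chow library, 3 of the 16 were under 1. The T cell and monocyte attractant Ccl5 was at 2.06, 2.38 and 1.57 in chow and 7846, 13.7 and 10973 in WD control. Replicate 2 exceeded chow while remaining far below replicates 1 and 3. Ccl2, the main attractant of inflammatory monocytes, was at 33.5, 51.7 and 39.8 in chow and 1098, 218 and 1126 in WD control. Ccl7, its neighbour on chromosome 11 and a ligand of the same receptor, was at 8.34, 14.2 and 12 in chow and 1256, 120 and 1422 in WD control. For both monocyte attractants the 6 libraries did not overlap. The log2 difference was 3.94 (SE 0.94) for Ccl2 and 5.61 (SE 1.29) for Ccl7, and limma's adjusted p was 0.182 for both. The chow libraries of the other table held Ccl2 at 73.8, 81.7 and 49.2 and Ccl7 at 39.3, 40.8 and 28.1, also below every WD control library.
Other chemokines of the same kind had the same order of libraries. Ccl12, another monocyte attractant, was at 16.9, 27 and 21.4 in chow and 727, 68.4 and 824 in WD control. Ccl4, which attracts T cells and monocytes, was at 28.6, 40.6 and 35 in chow and 832, 70.2 and 805 in WD control, and at 75.7, 75.3 and 69.7 in the other chow libraries, which reached replicate 2. Its neighbour Ccl3 was at 16.8, 13.9 and 16.7 in chow and 466, 30.3 and 475 in WD control. In Ccl9, by contrast, replicate 2 was level with the others, with 46.2, 31.8 and 37 in chow and 85.4, 82.9 and 72.9 in WD control; the other chow libraries were above all of these, at 96.8, 91.6 and 87.3. The 2 chemokines that lay below chow in every library were Pf4 and Cxcl14. Pf4, a chemokine of platelets and macrophages, was at 721, 540 and 631 in chow and 145, 514 and 123 in WD control. Cxcl14, which attracts monocytes and dendritic cells, was at 18.6, 24.8 and 21.6 in chow and 1.54, 16.5 and 1.35 in WD control, with replicate 2 just under chow.

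Inflammatory cytokines split within the label. Of 11 tested, 7 lay above chow in every library and 0 below, beside 8.06% and 21.1% of all genes. In every chow library, 4 of the 11 were under 1, so these 4 passed the filter through other libraries. An unadjusted p under 0.05 (limma) was found for 10 of the 11, beside 27.4% of all genes, and 0 passed the threshold. The list's medians were 3.28, 0.10 and 3.49 in replicates 1, 2 and 3. Il1b, the main product of the inflammasome pathway, was at 2.77, 1.69 and 2.19 in chow and 717, 2.42 and 598 in WD control (limma adjusted p = 0.182). Tnf was at 8.57, 12.4 and 7.87 in chow and 64.6, 17.8 and 53.1 in WD control (limma adjusted p = 0.182), with replicate 2 also above all chow libraries. Il10, the cytokine that restrains macrophages, was at 0.698, 0.764 and 0.567 in chow and 13.2, 0.331 and 17.3 in WD control (limma adjusted p = 0.223). For Il10 replicate 2 was the lowest of all 6 libraries. Il6 was at 0, 0.0192 and 0 in chow and 19.8, 0.0246 and 16.2 in WD control, so that chow and replicate 2 were near 0. Nos2, which makes nitric oxide, was at 0, 0.0167 and 0 in chow and 192, 0.173 and 229 in WD control, with the same order.
Interferon-stimulated genes had medians of 4.21, 0.07 and 4.6 over 48 members. Among them 25 lay above chow in every library and 0 below (24 and 0 after median-ratio scaling). The shares of all genes were 8.06% and 21.1% (13.7% and 16% after scaling). In every chow library, 17 of the 48 were under 1. Cxcl10, whose promoter is shown above, was at 2.79, 5.13 and 2.87 in chow and 1221, 4.78 and 1252 in WD control, and replicate 2 lay within the chow range. Rsad2 was at 0.250, 0.462 and 0.312 in chow and 501, 1.04 and 569 in WD control. Irf7, the factor that amplifies the interferon response, was at 3.8, 3.63 and 2.89 in chow and 698, 4.45 and 717 in WD control. Ifit1, which binds viral RNA, was at 0.127, 0.0482 and 0.0948 in chow and 30.7, 0.152 and 37.9 in WD control. In Rsad2, Irf7 and Ifit1 replicate 2 was above chow by a small margin beside the distance to replicates 1 and 3. No gene of this list passed the threshold, and 17 of the 48 had an unadjusted p under 0.05 (limma), beside 27.4% of all genes.
Antimicrobial and acute phase genes included some in which replicate 2 stood clearly between. Saa3, an acute phase protein of macrophages, was at 16, 11.3 and 13.5 in chow and 12981, 88.4 and 11192 in WD control. Acod1, the enzyme that makes itaconate, was at 0.978, 0.627 and 0.611 in chow and 382, 2.54 and 331 in WD control. The protease inhibitor Slpi was at 0.586, 0.648 and 0.445 in chow and 71.5, 2.48 and 86.6 in WD control. In these 3 genes replicate 2 lay above every chow library of both tables, since ND control replicates 1 to 3 held Saa3 at 8.16, 6.71 and 7.24, Acod1 at 0.480, 0.478 and 0.389 and Slpi at 1.31, 1.04 and 1.28.

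Components of the LPS receptor pathway and its brakes were mostly near chow in replicate 2. Of 26 pathway genes 3 lay above chow in every library and 1 below, and of 19 feedback inhibitors 5 and 0 (3 and 0 after median-ratio scaling). The shares of all genes were 8.06% and 21.1% (13.7% and 16% after scaling). Tlr4, the receptor itself, was at 3.21, 2.2 and 3.25 in chow and 1.29, 3.58 and 1.51 in WD control, and its co-receptor Cd14 at 38.8, 37.7 and 36 in chow and 75.6, 35.5 and 53.5 in WD control, both with overlap. The adaptor Myd88 was at 19.5, 19.4 and 16.7 in chow and 61.7, 20.2 and 58.8 in WD control. Tnfaip3, the ubiquitin-editing enzyme that damps NF-kB, was at 2.04, 1.77 and 1.93 in chow and 30.8, 3.85 and 30.9 in WD control. Irak3, a kinase-like inhibitor of the same pathway, was at 4.62, 3.75 and 4.02 in chow and 36.7, 6.59 and 29.9 in WD control. For the inhibitors Tnfaip3 and Irak3 replicate 2 was above every library of ND control replicates 4 to 6, but the other chow libraries reached it, at 2.24, 4.37 and 3.59 for Tnfaip3 and 6.8, 5.36 and 6.32 for Irak3.
Antigen presentation genes of both classes had higher medians in replicates 1 and 3. The class I list had medians of 2.39, -0.07 and 2.60 over 20 members. In every library 3 lay above chow and 0 below, beside 8.06% and 21.1% of all genes. Psme2, an activator subunit of the immunoproteasome, was at 186, 210 and 183 in chow and 897, 210 and 770 in WD control. The class I transactivator Nlrc5 was at 2.77, 2.63 and 2.45 in chow and 23.4, 2.69 and 29.5 in WD control. The class II list had medians of 1.35, -0.28 and 1.27 over 9 members, and 3 of them lay below chow in every library and 0 above (2 and 0 after median-ratio scaling). Among all genes, 21.1% lay below and 8.06% above (16% and 13.7% after scaling). H2-DMa, a chain of the peptide exchanger of class II, was at 21.6, 20.8 and 19.7 in chow and 8.43, 14.3 and 9.27 in WD control. Its partner H2-DMb2 was at 1.55, 2.12 and 1.67 in chow and 0.426, 0.625 and 0.688 in WD control, with replicate 2 level with the other WD control libraries. The class II chain H2-Aa itself overlapped, at 2.28, 3 and 1.69 in chow and 16, 1.71 and 13.8 in WD control. Of 13 costimulatory and checkpoint ligands 5 lay above and 3 below, beside 8.06% and 21.1% of all genes. Cd40, the receptor for T cell help, was at 2.38, 3.66 and 1.98 in chow and 102, 5.1 and 89 in WD control, and the checkpoint ligand Cd274 at 0.420, 0.368 and 0.374 in chow and 118, 0.669 and 129 in WD control.

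**Figure D2:**
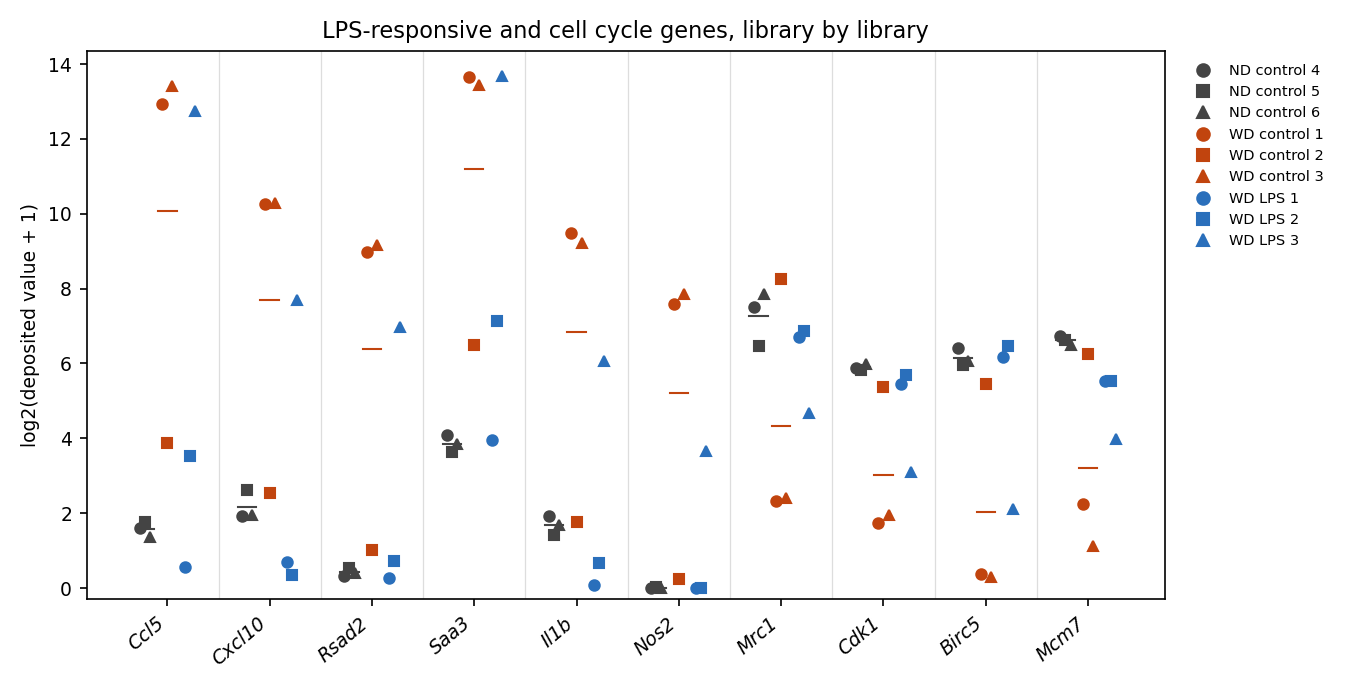
Values of 10 genes in each of the 9 libraries of the Western diet table, as log2(deposited value + 1); symbols mark the replicate, colours the label, and short bars the mean of the chow and WD control libraries. WD control replicates 1 and 3 are high for Ccl5, Cxcl10, Rsad2, Saa3, Il1b and Nos2 and low for Mrc1, Cdk1, Birc5 and Mcm7, while WD control replicate 2 lies near chow except for Ccl5 and Saa3, where it lies between.

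Cell division genes split in the opposite direction. The mitosis list had medians of -4.11, -0.33 and -3.99 in replicates 1, 2 and 3 over 31 members, and the DNA replication list -3.46, -0.01 and -3.40 over 35. LPS moved these lists by medians of -3.83 and -1.98 in the other table. Birc5, the survivin gene of dividing cells, was at 83.7, 61.8 and 66.5 in chow and 0.290, 42.6 and 0.221 in WD control. The mitotic kinase Cdk1 was at 57.9, 55.8 and 62.1 in chow and 2.35, 40.1 and 2.86 in WD control. Of the mitosis genes 15 lay below chow in every library and 0 above, replicate 2 included, and of the DNA replication genes 10 and 0. Among all genes, 21.1% lay below and 8.06% above. Mcm7, a subunit of the replicative helicase, was at 106, 97.2 and 89.2 in chow and 3.73, 75.2 and 1.2 in WD control.
Some genes of resting or alternatively activated macrophages were highest in replicate 2. Mrc1, the mannose receptor, was at 182, 88.2 and 229 in chow and 4.02, 303 and 4.34 in WD control (limma adjusted p = 0.203). Lpl, which releases fatty acids from lipoproteins, was at 342, 193 and 405 in chow and 9.12, 555 and 8.45 in WD control (limma adjusted p = 0.198). Cd163, the receptor for haemoglobin complexes, was at 3.57, 1.69 and 3.18 in chow and 0.152, 3.66 and 0.128 in WD control (limma adjusted p = 0.203). In all 3 genes replicate 2 was above every chow library and replicates 1 and 3 below every one. Chil3, a chitinase-like marker of alternative activation, was instead below chow in each library, with 2.93, 4.16 and 3.84 in chow and 0.588, 1.69 and 0.789 in WD control (limma adjusted p = 0.163). Retnla, the other classic marker of that state, was at 0, 0 and 0 in chow and 0.533, 2.64 and 0.312 in WD control and did not reach 1 in enough libraries to be tested.

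At an adjusted p under 0.05, 8 of 9994 genes (0.08%) differed between the labels, 1 higher (0.01%) and 7 lower (0.07%), while 2735 (27.4%) had an unadjusted p under 0.05 (limma). The count rested on single libraries. It was 5633 (56.4%) without WD control replicate 2, the 8 among them, with 1214 higher (12.1%) and 4419 lower (44.2%). Without ND control replicate 4, ND control replicate 6 or WD control replicate 3 it was 0, with 1089, 1255 and 710 genes at an unadjusted p under 0.05, and it was 3 without ND control replicate 5 or WD control replicate 1.
Ptp4a2, a prenylated tyrosine phosphatase (chromosome 4, 129811219 to 129850003, plus strand), was at 8.32, 7.86 and 9.55 in chow and 22.3, 27.4 and 24.2 in WD control. It rose by 1.42 (SE 0.18, limma adjusted p = 0.0458), with the 3 libraries of each label close together. Rab4a, a small GTPase of fast endosomal recycling (chromosome 8, 123805985 to 123835287, plus strand), was at 4.46, 4.02 and 3.6 in chow and 0.250, 0.671 and 0.172 in WD control. It fell by 1.89 (SE 0.21, limma adjusted p = 0.0327). In WD LPS, Rab4a was at 2.85, 4.81 and 3.67, around the chow level.
The 2 transcripts with the largest change among the 8 came from one place, the ribosomal RNA locus on chromosome 17. AY036118 (chromosome 17, 39847113 to 39848035, minus strand) and CT010467.1 overlap there, so reads cannot be assigned to one of them with certainty. AY036118 was at 2722, 2144 and 3862 in chow and 228, 124 and 91.7 in WD control. It fell by 4.35 (SE 0.36, limma adjusted p = 0.0158). These transcripts measure ribosomal RNA in a library, and the chow libraries of the other table held AY036118 at 137, 145 and 148.
The other 4 called genes were low in all libraries. Cpne8, a calcium-dependent membrane-binding protein, was at 1.25, 1.48 and 1.87 in chow and 0.00334, 0.268 and 0.0135 in WD control. The transcript Gm9888 was at 2.75, 3.08 and 2.63 in chow and 0.279, 0.697 and 0.762 in WD control; it lies opposite Cmtm7, whose reads cannot be told from its own unless the counting used strand. The pseudogenes Gm12895 and Gm12896 shared the same values, 1.62, 1.28 and 1.97 in chow and 0.0979, 0 and 0.101 in WD control, and cannot be told apart. None of the 8 was raised or lowered by LPS in chow macrophages; 3 were little changed, 2 in between and 3 had no test.
Chow libraries of the other table lay beyond ND control replicates 4 to 6 on the WD control side in all 8. They were all below in 7, such as Cpne8 at 0.143, 0.551 and 0.0900, and above for Ptp4a2, at 26.3, 12.1 and 26.5. Over all 9994 genes, 23.7% had the other chow libraries all above replicates 4 to 6 and 28.1% all below. Rab4a alone, at 2.77, 2.98 and 2.74 there, had WD control outside the range of all 6 chow libraries.

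Adjusting over all chromosomes (10331 genes, 24 called, 0.232%) brought the autosomal calls to 15 (0.15%), 3 higher (0.03%) and 12 lower (0.12%). The rest of the 24 lie outside the autosomes, where Y-linked genes and Xist go with the diet label. Genes of small p that enter the adjustment lower the adjusted p of others. The added autosomal calls thus rest on no further data of their own. The added genes were Arg1 and Sparc, which were higher, and Ctse, Asap1, Ltf, Hes6 and D930007J09Rik, which were lower. Arg1, the arginase of alternatively activated macrophages (chromosome 10, 24915221 to 24927484, minus strand), was at 0.401, 0.821 and 0.556 in chow and 49.2, 25 and 46.4 in WD control. Replicate 2 was of the same order as the others, unlike in most LPS-raised genes. The log2 difference was 4.64 (SE 0.61), with a limma adjusted p of 0.0517 over autosomal genes and 0.0284 over all chromosomes. The other chow libraries held Arg1 at 1.74, 1.9 and 1.59, and LPS moved it by 4.89 on the log2 scale in that table. In WD LPS it was at 77.6, 74.1 and 391.
Ctse encodes cathepsin E, an endosomal protease (chromosome 1, 131638306 to 131675505, plus strand). It was at 10.03, 8.59 and 8.62 in chow and 0, 0.0301 and 0.0370 in WD control, and at 23.4, 39.4 and 8.87 in WD LPS. Ctse was thus nearly absent from WD control and present in the other 6 libraries of the table, and it stood at 6.63, 6.87 and 5.22 in the other chow libraries. The log2 difference was -3.30 (SE 0.44, limma adjusted p = 0.054 over autosomal genes and 0.0305 over all chromosomes). Asap1, which regulates ARF GTPases in cell spreading, was at 17.5, 21 and 18 in chow and 1.65, 3.87 and 4.28 in WD control, and at 20.8, 16.6 and 12.8 in WD LPS. Its log2 difference was -2.28 (SE 0.29, limma adjusted p = 0.0517 and 0.0284). The other chow libraries held Asap1 at 14.5, 27 and 16.8, level with ND control replicates 4 to 6.
The neutrophil granule genes Ltf and Ngp ran the same way at low levels, unlike the neutrophil list as a whole, whose medians were 1.49, -0.31 and 1.87. Ltf, the iron-binding protein lactoferrin, was at 2.99, 3.93 and 2.2 in chow and 0.191, 0.609 and 0.0903 in WD control, and at 2.33, 3.38 and 3 in WD LPS. Ngp, another granule protein, was at 3.27, 4.27 and 2.48 in chow and 0.183, 0.839 and 0.151 in WD control, and at 3.33, 4.34 and 1.9 in WD LPS (limma adjusted p = 0.11). For Ctse, Asap1, Rab4a, Ltf and Ngp the 3 WD control libraries were therefore the low ones of the table. Of the 15 genes, 7 had WD control outside the range of all 6 chow libraries: Arg1 above it, and Rab4a, Asap1, Ctse, Ltf, Hes6 and D930007J09Rik below it. Among all genes, 3.68% lay above that range and 9.6% below it. The 15 had been called for their distance from ND control replicates 4 to 6, so higher shares follow in part from that choice. Of all genes lying above or below ND control replicates 4 to 6 in every WD control library, 45.7% and 45.5% lay beyond all 6.

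Beside the test, genes were taken that lay at least 2-fold from the chow mean in each WD control library: 36 above (0.36%) and 57 below (0.57%), and 40 and 45 (0.4% and 0.45%) after median-ratio scaling. Among the 36, 21 were raised by LPS in chow and 4 lowered. Among the 57, 22 were lowered and 1 raised. In all 9994 genes, 577 were raised and 1340 lowered. Against the chow libraries of both tables, 18 of the 36 lay above all 6 and 37 of the 57 below all 6, and in the remaining 18 and 20 at least 1 of the other chow libraries reached the WD control range. Among all genes, 3.68% lay above all 6 and 9.6% below. The 36 and 57 had already been chosen for their distance from ND control replicates 4 to 6, so higher shares follow in part from that choice. The 18 include Arg1, Ccl2, Ccl7, Ccl12, Ccl5, Saa3, Acod1, Slpi, Pilra and Pilrb1, the last 2 being paired receptors for sialylated ligands. Pilra was at 17.8, 15 and 16.4 in chow and 103, 36.7 and 102 in WD control.
The 37 include genes of surface receptors and lipid mediators. Cxcr4, the receptor for the marrow retention signal Cxcl12, was at 7.55, 4.01 and 5.69 in chow and 0.161, 0.657 and 0.0271 in WD control. Cd81, a tetraspanin of the cell surface, was at 167, 128 and 148 in chow and 37.6, 19.4 and 32.5 in WD control, with replicate 2 the lowest. Ptgs1, the constitutive cyclooxygenase, was at 22.4, 18.1 and 14.2 in chow and 0.296, 7.83 and 0.126 in WD control. Replicate 2 lay between chow and the other libraries for Ptgs1, and likewise for Cyp27a1, the mitochondrial sterol hydroxylase, at 5.28, 3.09 and 3.87 in chow and 0.0940, 1.25 and 0.427 in WD control.
Another group within the 57 was present in ND control replicates 4 to 6 and low elsewhere. Hpgd, which breaks down prostaglandins, was at 20.5, 13.8 and 20.8 in chow and 0.0163, 4.47 and 0.0287 in WD control, and at 0.551, 0.552 and 0.507 in the other chow libraries. Cd207, the langerin gene, was at 16.2, 13 and 15.2 in chow and 0.0443, 5.93 and 0.0167 in WD control, and at 0.0290, 0.0393 and 0 in the other chow libraries. Cd34, a progenitor marker, was at 6.13, 4.37 and 4.35 in chow and 0.0216, 1.72 and 0.000537 in WD control, and at 0.0852, 0.0127 and 0.0591 in the other chow libraries. In these 3 genes replicate 2 was the WD control library with a value above 1, and it stayed below every library of ND control replicates 4 to 6. Id1, a target of BMP signalling, was at 21.8, 30.2 and 17.2 in chow and 1.6, 8.02 and 4.31 in WD control, and at 0.562, 0.809 and 0.616 in the other chow libraries. The fractalkine receptor Cx3cr1 fell short of 2-fold in replicate 2, with 18.7, 17.6 and 13.8 in chow and 0.431, 12.4 and 0.213 in WD control, and was at 0.194, 0.163 and 0.120 in the other chow libraries. For Hpgd, Cd207, Cd34 and Cx3cr1 the libraries above 1 were thus ND control replicates 4 to 6 and WD control replicate 2, whereas Id1 was above 1 in all 3 WD control libraries.

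**Figure D3:**
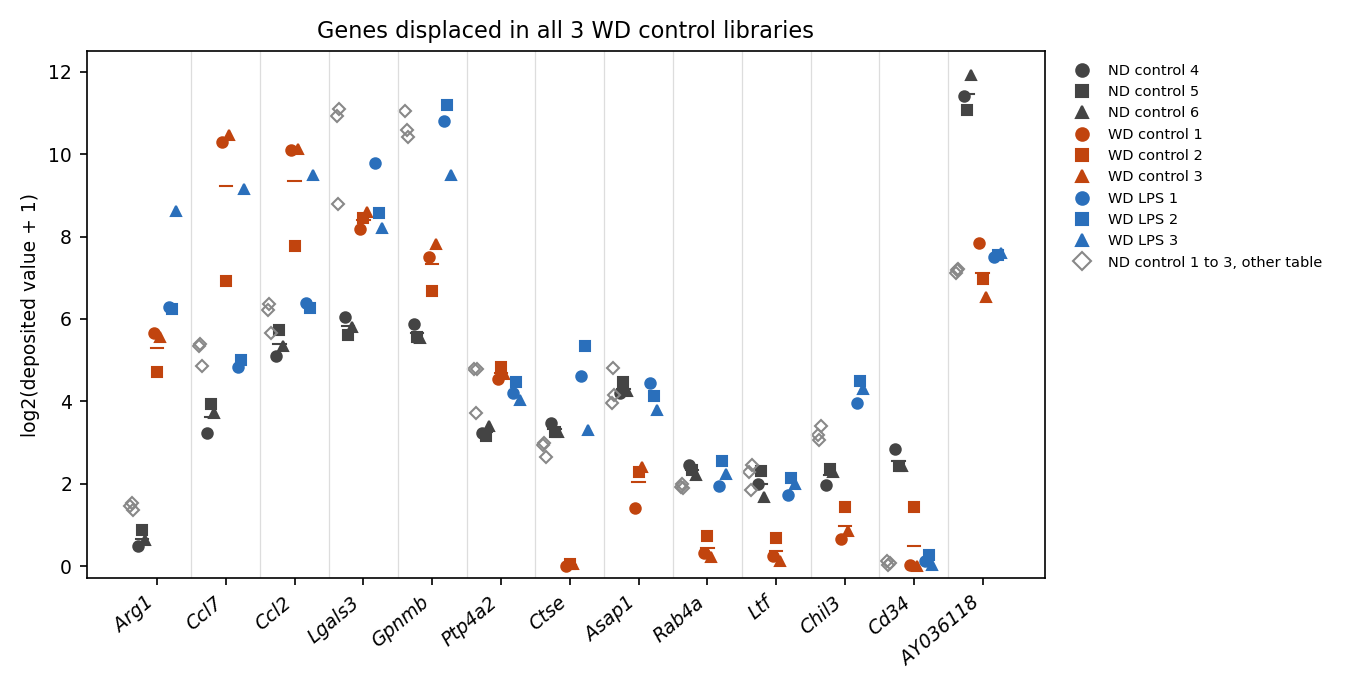
Values of 13 genes displaced in all 3 WD control libraries, as log2(deposited value + 1), in the 9 libraries of the table (symbols for replicates, colours for labels, bars for the chow and WD control means) and in ND control replicates 1 to 3 of the separately normalized table (open diamonds). Arg1, Ctse, Asap1, Rab4a and Ltf have the chow libraries of both tables on one side of WD control. The diamonds of Arg1, Ctse and Rab4a still lie on the WD control side of ND control replicates 4 to 6. So do those of Lgals3, Gpnmb, Ptp4a2, Cd34 and AY036118, where some or all diamonds reach or pass a WD control value.

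Genes of lipid-laden macrophages were mixed. Of 23 members of the list, 8 lay above chow in every library and 2 below, beside 8.06% and 21.1% of all genes, and 0 passed the threshold. Medians were -0.29, 0.21 and -0.41 in replicates 1, 2 and 3, and 0.34, 0.18 and 0.22 after median-ratio scaling. Lgals3, the lectin galectin-3, was at 64.9, 48.1 and 55 in chow and 290, 348 and 388 in WD control. There was no split within the label, with a log2 difference of 2.59 (SE 0.38, limma adjusted p = 0.0779). In chow macrophages of the other table LPS changed Lgals3 by -3.46 on the log2 scale, the opposite direction. Gpnmb, a glycoprotein of phagocytes with a lysosomal load, was at 57.6, 46.4 and 45.4 in chow and 182, 101 and 226 in WD control (limma adjusted p = 0.182), and LPS changed it by -1.87.
Both genes were still higher in the other chow libraries, at 1944, 444 and 2183 for Lgals3 and 2125, 1543 and 1368 for Gpnmb. In WD LPS, Lgals3 was at 882, 380 and 296 and Gpnmb at 1784, 2343 and 718. ND control replicates 4 to 6 were therefore the lowest of these 12 libraries for both. The elastase Mmp12 had the same pattern, with 3.25, 2.09 and 2.77 in chow and 15, 10.8 and 12.8 in WD control, and 126, 132 and 113 in the other chow libraries. Anpep, a surface aminopeptidase, was at 5.2, 4.86 and 5.11 in chow and 26.5, 14.2 and 30.8 in WD control, and at 99.2, 132 and 117 in the other chow libraries. Plin2, which coats lipid droplets, was at 60.8, 64.1 and 59.9 in chow and 258, 96.1 and 275 in WD control, and at 472, 384 and 412 in the other chow libraries. In all 5 genes the difference between the 2 sets of chow libraries was thus as wide as that between the labels, or wider.
Other members differed less or split within the label. Spp1, the secreted protein osteopontin, was at 203, 214 and 304 in chow and 309, 682 and 622 in WD control, highest in replicate 2. The fatty acid carrier Fabp5 was at 36.3, 29.2 and 30.6 in chow and 69.9, 43.8 and 66.2 in WD control. Trem2, the lipid-sensing receptor, was at 83.9, 74.7 and 75.2 in chow and 16.5, 75.7 and 33.5 in WD control. The lysosomal lipase gene Lipa was at 177, 174 and 176 in chow and 52.9, 183 and 43.2 in WD control. In Trem2 and Lipa replicate 2 was within or next to the chow range and replicates 1 and 3 were below it. Apoe, the apolipoprotein secreted by macrophages, overlapped between labels at 1233, 1105 and 985 in chow and 959, 1027 and 1010 in WD control (limma adjusted p = 0.744). Cd36, the receptor for oxidized lipoprotein, overlapped as well, at 117, 121 and 188 in chow and 119, 208 and 139 in WD control (limma adjusted p = 0.802).

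Targets of the sterol receptor LXR, which drives cholesterol efflux, had no common direction. Of 13 genes, 1 lay above and 1 below chow in every library, beside 8.06% and 21.1% of all genes. An unadjusted p under 0.05 (limma) was found for 0 of them, beside 27.4% of all genes. The efflux pump Abca1 was at 27.7, 19.1 and 25.3 in chow and 24.3, 16.7 and 26.7 in WD control, a log2 difference of -0.10 (SE 0.41). Abcg1, the pump that loads HDL, was at 2.38, 1.53 and 1.66 in chow and 6.59, 1.71 and 8.61 in WD control, high in replicates 1 and 3. The gene above chow was Nr1h3, which encodes an LXR receptor, at 4.52, 4.16 and 2.88 in chow and 44.4, 5.41 and 32 in WD control. Mylip, the LXR target that degrades the LDL receptor, was the gene below, at 7.29, 6.23 and 7.55 in chow and 3.68, 4.42 and 3.94 in WD control.
Cholesterol synthesis genes parted within the label, with medians of -1.12, 0.37 and -1.26 over 22 members (-0.61, 0.33 and -0.81 after median-ratio scaling). Cyp51, a sterol demethylase, was at 7, 5.72 and 5.89 in chow and 1.03, 9.62 and 1.25 in WD control. Msmo1, a sterol oxidase, was at 13.6, 12.3 and 12.6 in chow and 5.91, 21 and 4.8 in WD control. Sqle, which makes squalene epoxide, was at 11.8, 11.2 and 11 in chow and 2.27, 17.8 and 2.05 in WD control. In each, replicate 2 was the highest of the 6 libraries and replicates 1 and 3 were the lowest. Of the 22 genes, 1 lay below chow in every library and 0 above, beside 21.1% and 8.06% of all genes. The gene below was the kinase Pmvk, at 10.4, 10.4 and 9.19 in chow and 4.48, 8.7 and 3.31 in WD control.
Of 13 genes of fatty acid synthesis and desaturation 3 lay below chow in every library and 0 above, a share close to the 21.1% of all genes that lay below. These were the desaturase genes Fads1, Fads2 and Fads3. Fads2 was at 14.8, 13 and 11.6 in chow and 0.0203, 6.64 and 0 in WD control. Fads1 was at 19, 18.8 and 17.3 in chow and 1.65, 15 and 1.28 in WD control. Fads3 was at 1.4, 1.42 and 1.37 in chow and 0.238, 1.26 and 0.123 in WD control. The list's median was 0.00 in replicate 2, and in Fads1 and Fads3 that library was just under the chow range.

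Receptors for lipoproteins, bacteria and dying cells also divided. Of 13 scavenger receptors 3 lay above chow in every library and 1 below, beside 8.06% and 21.1% of all genes. Marco, which binds bacteria and particles, was at 17.1, 10.6 and 14.5 in chow and 494, 48.1 and 294 in WD control, and at 453, 423 and 484 in the other chow libraries. Msr1, the scavenger receptor for modified LDL, was at 31.2, 29.6 and 38.1 in chow and 90.8, 61.6 and 111 in WD control. Of 20 genes of dying-cell uptake 1 lay above and 6 below, beside 8.06% and 21.1% of all genes, with medians of -1.45, -0.13 and -1.58. Itgb5, an integrin chain that binds apoptotic cells through a bridging protein, was at 171, 162 and 171 in chow and 18.9, 90.6 and 17 in WD control. Replicate 2 was clearly under chow, and so were the other chow libraries, at 54.3, 63.4 and 58.4. The gene above chow was Cd300ld, a myeloid receptor of lipids, at 7.09, 6.59 and 8.41 in chow and 24.9, 12.7 and 19.8 in WD control. Of 6 Fc receptor genes 2 lay above and 0 below (2 and 1 after median-ratio scaling), beside 8.06% and 21.1% of all genes (13.7% and 16% after scaling). Fcgr4, an activating receptor for IgG, was at 2.44, 1.16 and 1.8 in chow and 198, 2.84 and 206 in WD control, and at 39.9, 34.7 and 37 in the other chow libraries.

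Of 29 genes of glycolysis and the hypoxia response, 10 lay above chow in every WD control library and 0 below. After median-ratio scaling the counts were 9 and 0. The shares of all genes were 8.06% and 21.1% (13.7% and 16% after scaling). In every chow library, 3 of the 29 were under 1. Medians were 0.40, 0.18 and 0.30 in replicates 1, 2 and 3. Hk3, the hexokinase of myeloid cells, was at 63.2, 66 and 64.2 in chow and 233, 72.4 and 232 in WD control. P4ha1, a collagen prolyl hydroxylase induced by low oxygen, was at 40.1, 47.5 and 39.2 in chow and 84.5, 63.1 and 81.8 in WD control. Bnip3, which marks mitochondria for removal, was at 19, 21 and 19.8 in chow and 55.5, 25.2 and 41.5 in WD control. None of the 29 passed the threshold, and limma's adjusted p was 0.182 for Hk3, P4ha1 and Bnip3.
Of 37 nuclear genes of the respiratory chain, 11 lay below chow in every library and 0 above (10 and 1 after median-ratio scaling), where 21.1% of all genes lay below (16% after scaling). Medians were -0.75, -0.05 and -0.91, and -0.12, -0.08 and -0.29 after scaling. Cox6a1, a subunit of cytochrome c oxidase, was at 171, 174 and 158 in chow and 69.3, 119 and 72.5 in WD control. Uqcrq, of complex III, was at 77.3, 83 and 78.6 in chow and 28.6, 54.3 and 32.8 in WD control. Cox8a, another cytochrome c oxidase subunit, was at 117, 118 and 88 in chow and 29.5, 48.1 and 38.6 in WD control. Replicate 2 was well below chow in all 3. For Cox8a the log2 difference was -1.47 (SE 0.22, limma adjusted p = 0.0779), LPS moved it by 0.04 in the other table, and the other chow libraries held it at 65.6, 67.7 and 66.1. Gene length moved with the differences: the fifth of genes with the shortest exon length had medians of -0.56, -0.04 and -0.63 in the 3 libraries, and the fifth with the longest -0.48, 0.09 and -0.37. Its part in the values of these short genes was not tested.
Of 23 genes of fatty acid oxidation and PPAR targets, 2 lay above and 5 below, shares close to the 8.06% and 21.1% of all genes. Hadh, a dehydrogenase of the oxidation spiral, was at 27.1, 24.7 and 23 in chow and 3.07, 21.9 and 2.13 in WD control. Acadvl, which oxidizes very long chains, was at 39.7, 38.9 and 35.7 in chow and 22.8, 34.6 and 18.7 in WD control. Ucp2, a carrier of the mitochondrial membrane, was at 115, 144 and 113 in chow and 45.2, 101 and 45.2 in WD control. In these 3 genes replicate 2 was next to chow.
Lysosomal genes showed both directions, with 5 above and 10 below chow of 31 (5 and 7 after median-ratio scaling). The shares of all genes were 8.06% and 21.1% (13.7% and 16% after scaling). Ctsb, a lysosomal protease, was at 1088, 975 and 1002 in chow and 1337, 1307 and 1242 in WD control, with the 3 libraries level. Ctsd, another lysosomal protease, was at 2782, 2517 and 2623 in chow and 2050, 2339 and 1612 in WD control, below chow in each, though with overlap after median-ratio scaling. The antioxidant and haem list had 2 above and 7 below of 27, close to the 8.06% and 21.1% of all genes. Hmox1, the haem oxygenase, was at 303, 342 and 294 in chow and 1308, 401 and 1187 in WD control. Sod1, a superoxide dismutase, was at 465, 477 and 453 in chow and 146, 350 and 119 in WD control.

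Genes that LPS left little changed in chow macrophages were examined apart. The 10 largest differences each way were taken among those whose 6 libraries did not overlap and whose higher mean reached 10. The higher 10 were Rgl1, Cep85, Mmp12, Txn2, Fam49a, Plin2, Fndc3a, Ecm1, Lilrb4a and Plek, with log2 differences between 1.37 and 2.30. Lilrb4a, an inhibitory receptor of myeloid cells, was at 65.5, 55.8 and 86.6 in chow and 217, 144 and 267 in WD control; it overlaps the gene model Gm49339, which shares its reads. Plek, a substrate of protein kinase C in blood cells, was at 31.7, 31.3 and 38.2 in chow and 104, 55.7 and 118 in WD control. Txn2, the mitochondrial thioredoxin, was at 10.2, 11.7 and 9.9 in chow and 32.2, 87.4 and 21.4 in WD control, highest in replicate 2.
The lower 10 included Cxcl14, Tmem176b, Slc25a4, Sdf2l1, Gng10, Romo1, Syncrip, Myo7a and Gsto1, with log2 differences between -2.26 and -1.69. Slc25a4, the ATP and ADP carrier of mitochondria, was at 38.4, 42.7 and 46.3 in chow and 6.62, 35.8 and 3.64 in WD control. Romo1, a small protein of the mitochondrial inner membrane, was at 71.5, 75.6 and 65.3 in chow and 12.3, 40.9 and 16 in WD control. None of these 20 passed the threshold (limma adjusted p from 0.113 to 0.182), and in 18 of them replicate 2 lay closest to the chow mean. The 20 were ranked by the mean difference of the 3 libraries, which favours genes far off in replicates 1 and 3, so the 18 follow in part from that choice. Among all 5200 little-changed genes, replicates 1, 2 and 3 had 176, 36 and 226 at least 2-fold above the chow mean. At least 2-fold below it were 719, 35 and 845.

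**Figure D4:**
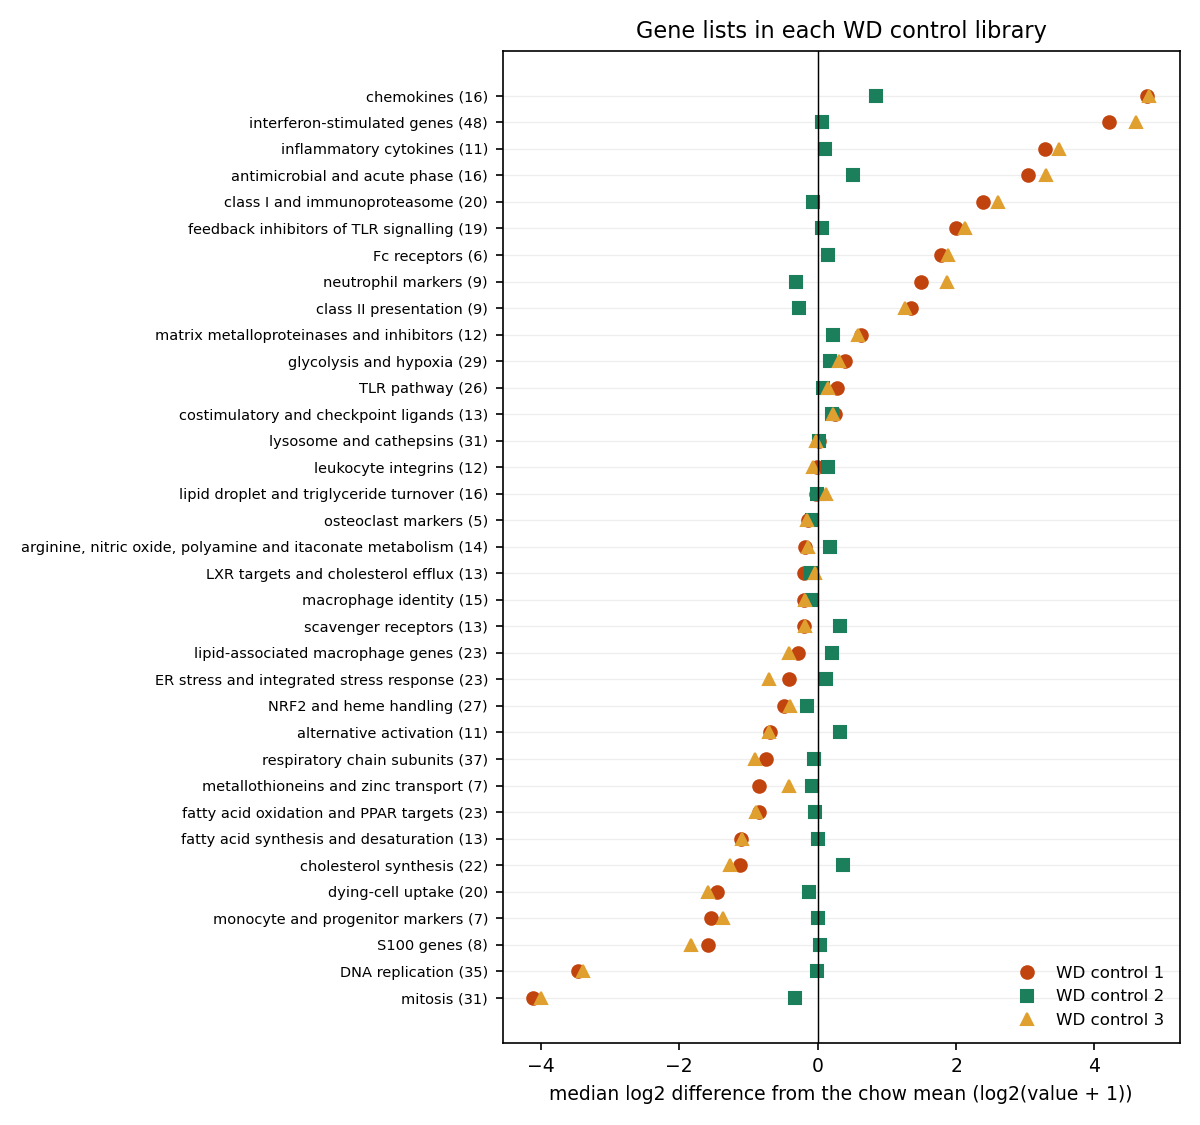
Median log2 difference from the chow mean, on the log2(value + 1) scale, of each gene list with 5 or more tested members (number in brackets) in WD control replicates 1, 2 and 3. Replicates 1 and 3 run from -4.11 and -3.99 for mitosis to 4.76 and 4.79 for chemokines, while replicate 2 runs from -0.33 to 0.84.

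The markers of macrophages were present in all 6 libraries. Lyz2 (lysozyme) was at 9826, 8109 and 8949 in chow and 4653, 13328 and 3335 in WD control. Adgre1, which encodes F4/80, was at 601, 519 and 545 in chow and 1203, 531 and 897 in WD control. Csf1r, the CSF1 receptor, was at 581, 623 and 531 in chow and 235, 480 and 201 in WD control. Of the 15 identity genes tested, 4 lay below chow in every library (Csf1r and the complement genes C1qa, C1qb and C1qc), and Ctsb lay above, where 21.1% of all genes lay below. C1qa was at 476, 423 and 429 in chow and 170, 355 and 138 in WD control. The other chow libraries held Csf1r at 233, 247 and 251 and C1qa at 151, 141 and 146, near WD control replicates 1 and 3 and below ND control replicates 4 to 6 and WD control replicate 2.
Markers of other cells varied. The T cell gene Cd3e was listed at 0 in all 6 libraries and the neutrophil surface gene Ly6g in 5 of them. The 14 neutrophil markers summed to between 45.3 and 67.9 in chow and to 4903, 39.6 and 2772 in WD control. Nearly all of the excess was Lcn2, a gene that LPS raises in macrophages, at 3.18, 5.14 and 2.41 in chow and 4792, 6.91 and 2634 in WD control. S100a9, another of the 14, was at 16.6, 24.8 and 15.7 in chow and 4.95, 10.7 and 3.32 in WD control, and its partner S100a8 at 14.9, 22.9 and 14.2 in chow and 49.4, 13.5 and 65.2 in WD control. The granule genes Ltf and Ngp above were low together with S100a9, and the part of neutrophil RNA in them was not tested. The 13 erythroid and megakaryocyte markers summed to between 556 and 734 in chow and to 148, 551 and 126 in WD control, nearly all of it Pf4.
The 13 stromal markers summed to between 0.26 and 0.84 in chow and to 6.74, 3.82 and 6.91 in WD control, with 10 of the 13 under 1 in all 6 libraries. Col1a2, a collagen chain, was at 0.0337, 0.125 and 0.274 in chow and 1.68, 1.19 and 1.22 in WD control (log2 difference 1.05, SE 0.16, limma adjusted p = 0.079). ND control replicates 1, 2 and 3 of the other table held it at 0.969, 3.64 and 2.96, with replicates 2 and 3 above every WD control library. Sparc, a matrix protein, was at 0.101, 0.317 and 0.576 in chow and 2.16, 1.79 and 1.92 in WD control. The part of stromal RNA in the higher value of Sparc was not tested, and in bulk RNA more cells of a type and more RNA per cell cannot be told apart. Of the B cell genes, Ighm was at 8.28, 6.02 and 6.47 in chow and 0.154, 2.88 and 0.0733 in WD control and Cd79b at 3.12, 1.89 and 2.32 in chow and 0.130, 1.11 and 0.182 in WD control. Cd22, the third gene of the T and B cell list that was tested, was higher in replicates 1 and 3, with 0.152, 0.119 and 0.141 in chow and 0.839, 0.127 and 1.24 in WD control.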

How the data were processed

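RNA from cultured macrophages was sequenced by the authors, and the values used are those of their deposited table, which names no unit. The value per gene and library was read as deposited by the authors; it behaves like FPKM. The submitters' processing notes name CASAVA 1.8.2, FastQC 0.11.5, Trim Galore 0.4.1, HISAT2 2.0.5 and the builds mm10 and mm9; how genes were quantified is not given in the sources used here. Of the table's 50644 genes, 50335 IDs were paired with a symbol and 46772 had the coordinates of GRCm38; 35 entries with displaced columns were left out. With no counts used, depth and counting error are unknown.
Autosomal genes at 1 or more in at least 3 of 9 libraries were tested on log2(value + 1) with limma 3.58.1 (R 4.3.3, trend) over the 9 libraries of the table, with Benjamini-Hochberg adjustment over 9994 genes. All calls use an adjusted p under 0.05. The LPS class of a gene comes from a limma fit of the other table. That fit shared its spread with LPS libraries pretreated with fatty acid, with or without TAK242. Scripts were tested on simulated data. Alternatives were another pseudocount, other filters, median-ratio scaling, no trend, only the 6 libraries, all chromosomes, and leaving out libraries.
The comparison, its members and the gene lists were chosen with earlier results of these data known. Named genes are those called, up to 4 members a list by smallest adjusted p, the 10 largest differences each way among little-LPS-changed genes with a group mean of at least 10, and a fixed set whatever it showed (Arg1, Nos2, Acod1, Tnf, Il1b, Il6, Il10, Ccl5, Cxcl10, Saa3, Mrc1, Retnla, Chil3, Cd36, Apoe, Abca1, Abcg1, Trem2, Tlr4, Cd14, Ccl2, S100a8, S100a9, Adgre1 and Csf1r). Other genes were chosen after their values were seen: Ccl12, Anpep, Cd207, Cd81, Cox8a, Cxcr4, Cyp27a1, Hpgd, Id1, Pilra and Ptgs1 from the genes at least 2-fold away in every library, and Birc5, Ccl3, Ctsb, Ctsd, Cyp51, Fabp5, Hk3, Hmox1, Ifit1, Irf7, Lcn2, Lipa, Lpl, Lyz2, Mcm7, Msmo1, Msr1, Mylip, Spp1 and Sqle from the lists. Some results are not reported here.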

Additional observations from a re-analysis of the deposited data

Results flagged for a closer look

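Y-linked genes were left out of the main test and entered only the alternative over all chromosomes. They were present in every library labelled WD control and listed at 0 in all 3 chow libraries of the same table. The mean in WD control was 21.5 for Eif2s3y, 9.75 for Ddx3y, 5.17 for Uty and 2.67 for Kdm5d. The diet label and the sex-linked pattern coincide in this comparison and cannot be told apart.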

How the results depend on the processing

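No paired analysis was possible because the groups compared share no replicate numbers (4 to 6 against 1 to 3). The 8 calls became 27 with no filter (23090 genes tested), 2 with a minimum of 5, 4 with a pseudocount of 0.1 (2 of the 8 among them), 2 with only the 6 libraries compared (0 of the 8 among them), 2 with no trend, and 24 over all chromosomes, of which 15 were autosomal. Leaving out 1 library gave between 0 and 5633 calls. Without WD control replicates 1 and 3 there were 0 calls, with 301 genes at an unadjusted p under 0.05 (limma); the lone library was assumed to vary like the others. Genes whose libraries do not overlap numbered 1367 higher under median-ratio scaling and 3228 higher without replicates 1 and 3, and leaving out 1 library gave 902 to 1888 higher and 2178 to 6122 lower. Genes at least 2-fold away in every library numbered 105 higher and 102 lower without replicates 1 and 3, and 32 to 782 higher and 53 to 2298 lower with 1 library left out. Adjusting the autosomal genes over all chromosomes, and all alternatives for the counts of genes that do not overlap or lie 2-fold away in every library, were chosen after seeing the data. The causes of these shifts were not tested. No called gene changed direction under these alternatives; of the 241 named genes, 215 more were called without WD control replicate 2. Precision is limited by 3 libraries a group, and that of single values by a depth that is unknown here.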
